A study of Rattus norvegicus with 8 samples.

Results

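Autophagy is the route by which a cell encloses part of its own content in a double membrane, the autophagosome, and breaks it down after fusion with lysosomes. The ULK1 kinase complex starts the process, the BECN1 lipid kinase complex marks the growing membrane, and an enzyme cascade with ATG7 and ATG5 attaches proteins of the ATG8 family (LC3 and GABARAP) to it. SQSTM1 (p62) ties cargo to these proteins and is itself degraded with the cargo, LAMP2 belongs to the lysosomal membrane, and TFEB switches on genes of autophagy and lysosomes. The 10 genes Ulk1, Becn1, Atg5, Atg7, Map1lc3a, Map1lc3b, Gabarapl1, Sqstm1, Lamp2 and Tfeb were taken by symbol from the 31699 rows of the deposited table, and each of them had exactly 1 row.

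The samples were annulus fibrosus cells (AFCs) of Sprague Dawley rats, the cells of the outer ring of the intervertebral disc, in 2 groups of 4 samples. AFCs of the Lv-Ctrl group carried the empty lentiviral vector pLVX-shRNA-Puro, and AFCs of the Lv-Piezo1 group carried the same vector with a short hairpin RNA against Piezo1, a mechanosensitive ion channel. Infection was at an MOI of 20 for 24 h, and all 8 samples were then under cyclic mechanical stretch (CMS) of 20% elongation at 0.5 Hz for 36 h, so no unstretched sample enters the comparison. Each isolation of AFCs pooled the tissue of 8 rats, and the labels do not say which samples share an isolation. In the paper, the treated cells of an isolation count as a repeat, and RNA-seq covered 4 repeats given Lv-Ctrl or Lv-Piezo1. The groups may therefore be paired by isolation. The values are TPM, a level normalised to transcript length with the same total in each sample. They carry no read numbers, and the depth behind a value is unknown. Precision rests on the spread of 4 samples in each group.

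The targeted gene was checked first. Piezo1 measured 31.1, 33.0, 26.7 and 29.5 TPM in Lv-Ctrl replicates 1 to 4, and 38.1, 37.7, 40.2 and 41.4 TPM in Lv-Piezo1 replicates 1 to 4. Its mRNA therefore went against the knockdown label, with more in every Lv-Piezo1 sample (log2 fold change 0.38, SE 0.06, adjusted p = 8.6e-04 from limma), and every direction given here is between samples as labelled. The paper reports that the knockdown by this vector was verified, in a supplementary figure whose measure its text does not name. Type I collagen marked the samples as matrix-producing cells, with Col1a1 at 3282 TPM in Lv-Ctrl and 5835 TPM in Lv-Piezo1 (means), and the annulus transcription factors Scx and Mkx went from 30.1 to 56.8 TPM and from 25.4 to 14.6 TPM, while the tendon and annulus marker Tnmd was at or near 0. The sum of 11 annulus and fibroblast markers was 7521 to 8484 TPM in Lv-Ctrl and 10861 to 11639 TPM in Lv-Piezo1, most of it Col1a1 and Col1a2, while 5 of its 10 tested markers rose and 4 fell, among them Dcn (1456 to 519 TPM), Pdgfra (194 to 74.8 TPM) and Fmod (68.4 to 33.98 TPM). The summed level of 7 endothelial markers was 0.34 to 0.61 TPM in Lv-Ctrl and 0.39 to 0.62 TPM in Lv-Piezo1. Of 10 macrophage and leukocyte markers, Adgre1 and Tyrobp were listed at 0 in every sample, and the sum was 136 to 142 TPM in Lv-Ctrl and 148 to 155 TPM in Lv-Piezo1, most of it Fcer1g. Chondrocyte markers summed to 33.1 to 39.8 TPM and 53.1 to 56.6 TPM, and nucleus pulposus markers, with Tbxt listed at 0, to 5.81 to 6.81 TPM and 22.7 to 27.4 TPM, of which Cd24 alone went from 3.79 to 21.9 TPM. The sum of 10 smooth muscle and pericyte markers was 442 to 451 TPM in Lv-Ctrl and 4551 to 4722 TPM in Lv-Piezo1. Several of these sums thus moved with the groups, and their part in the differences reported here was not tested. Fewer cells of a type and less RNA per cell cannot be told apart in bulk RNA.

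Promoter sequences are shown for the genes that fell most, Sqstm1, Lamp2 and Map1lc3b, and for Atg5, whose promoter held the only CACGTG found among these genes. TFEB and its relatives bind the letters CACGTG, which are 1 form of the E-box, and the CLEAR motif is a longer site that contains them. Other forms of the E-box were not searched. CACGTG and the CLEAR motif were each searched in 1 exact palindromic form, so a match on either strand is the same match. RefSeq promoters of assembly GRCr8 (250 bases before to 50 bases after the start site) were found for 8 of the 10 genes, all but Becn1 and Map1lc3a. The 250 bases before each start site are printed 5′ to 3′ on the strand of the gene, with CACGTG in capitals.
Sqstm1 promoter, chr10:35037751-35038000, minus strand: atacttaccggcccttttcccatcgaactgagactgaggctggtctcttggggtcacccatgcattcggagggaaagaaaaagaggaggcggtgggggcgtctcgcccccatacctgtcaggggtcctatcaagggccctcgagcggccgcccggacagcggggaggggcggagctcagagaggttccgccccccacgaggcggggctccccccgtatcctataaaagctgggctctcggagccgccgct
Lamp2 promoter, chrX:122087674-122087923, minus strand: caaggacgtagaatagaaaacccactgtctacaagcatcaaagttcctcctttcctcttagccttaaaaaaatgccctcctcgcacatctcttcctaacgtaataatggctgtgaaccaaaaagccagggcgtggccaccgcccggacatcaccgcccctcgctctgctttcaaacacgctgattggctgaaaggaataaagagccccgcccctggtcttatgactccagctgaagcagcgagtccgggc
Map1lc3b promoter, chr19:66574345-66574594, plus strand: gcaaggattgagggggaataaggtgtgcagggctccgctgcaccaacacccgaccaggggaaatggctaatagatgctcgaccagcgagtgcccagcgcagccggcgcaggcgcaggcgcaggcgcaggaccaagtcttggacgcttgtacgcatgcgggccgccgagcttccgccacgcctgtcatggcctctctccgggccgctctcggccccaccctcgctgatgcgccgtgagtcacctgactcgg
Atg5 promoter, chr20:49380585-49380834, plus strand: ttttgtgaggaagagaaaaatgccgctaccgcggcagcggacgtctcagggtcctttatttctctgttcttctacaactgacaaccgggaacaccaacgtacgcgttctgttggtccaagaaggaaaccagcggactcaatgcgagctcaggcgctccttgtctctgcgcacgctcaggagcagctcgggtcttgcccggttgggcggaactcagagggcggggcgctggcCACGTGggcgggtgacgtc
In the Atg5 promoter CACGTG began 19 bases before the start site, at position -19. The letters CACGTG were absent from the 300 bases of the other 7 promoters, and the CLEAR motif was absent from all 8. Of 33465 promoters of the same length in the table, 6.42% held CACGTG and 0.233% held this exact CLEAR form.

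Among the 10 genes, Sqstm1, Lamp2 and Map1lc3b fell in the samples labelled Lv-Piezo1, Atg7 and Ulk1 rose slightly, and Becn1, Gabarapl1, Map1lc3a, Tfeb and Atg5 did not pass the test. None of the 10 changed by as much as 2-fold. limma was applied to log2(TPM + 1), where fold changes of low genes come out too small, over the 13103 genes with a mean of at least 1 TPM, and all 10 genes passed that filter. At an adjusted p below 0.05 and a log2 fold change of at least 1 in size, 0 of the 10 genes were called, where 7.67% of tested genes were (4.91% higher and 2.76% lower). At an unadjusted p below 0.05, which at least 58.2% of all tested genes passed, 5 of the 10 passed, and 0 of them reached that fold change. With an adjusted p below 0.05 and no fold limit, 3 genes were lower and 2 were higher, against 16.3% and 41.9% of all tested genes (58.2% in both directions). These 5 genes were also those whose groups did not overlap, which was so for 54.2% of tested genes (14.5% lower and 39.8% higher). The p-values measure the spread between these samples. The median log2 fold change of the 10 genes was -0.05, and that of all tested genes was 0.14.

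**Figure D1:**
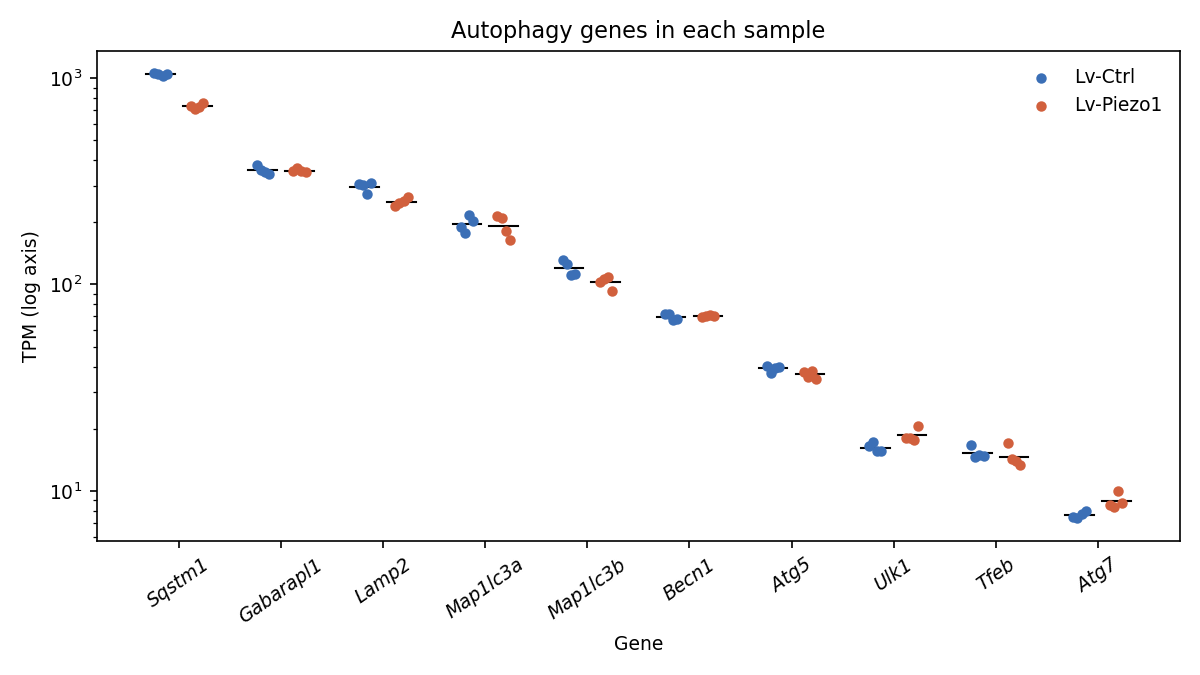
TPM (log axis) of the 10 genes, ordered by their mean in Lv-Ctrl, with 1 point for each of the 4 samples of a group and a line at the group mean. Sqstm1 lay above the other genes in all 8 samples, with means of 1044 TPM in Lv-Ctrl and 731 TPM in Lv-Piezo1, and Atg7 lay lowest.

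Levels spanned a wide range, and their order was nearly the same in both groups, as the plot of TPM by sample shows. Sqstm1 was the most abundant of the 10 genes and ranked 186 of the 13103 tested genes by mean TPM. Gabarapl1 (rank 404), Lamp2 (530), Map1lc3a (737) and Map1lc3b (1311) followed. Becn1 ranked 1980 and Atg5 3331, while Ulk1 (5748), Tfeb (6241) and Atg7 (8175) were near the middle of the tested genes. Only the ranges of Ulk1 and Tfeb overlapped between neighbours in this order, in Lv-Ctrl (15.6 to 17.2 TPM against 14.6 to 16.7 TPM). In Lv-Piezo1, Ulk1 (17.6 to 20.6 TPM) lay above Tfeb (13.4 to 17.0 TPM) in every sample.

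Sqstm1 encodes the cargo receptor p62. Its level was 1059, 1048, 1023 and 1048 TPM in Lv-Ctrl replicates 1 to 4 (mean 1044 ± 15.1 TPM, SD, n = 4). The Lv-Piezo1 replicates 1 to 4 had 736, 709, 724 and 756 TPM (mean 731 ± 19.9 TPM, SD, n = 4). All samples labelled Lv-Piezo1 lay below all samples labelled Lv-Ctrl. The log2 fold change was -0.51 (SE 0.03, 95% interval -0.58 to -0.45, Benjamini-Hochberg adjusted p = 6.6e-07 in limma). An exact permutation test (two-sided, 70 ways to label the samples) gave p = 0.029, the smallest value this design can give. Of all tested genes, 7.69% had a lower log2 fold change, and 75.0% had one smaller in size. The fall was -0.68 after median-ratio scaling of the samples and -0.48 after quantile normalization.

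Lamp2, a glycoprotein of the lysosomal membrane that is needed for fusion of autophagosomes with lysosomes, fell less. Its level was 307, 302, 275 and 309 TPM in Lv-Ctrl replicates 1 to 4. In Lv-Piezo1 replicates 1 to 4 it was 241, 247, 254 and 265 TPM. The groups did not overlap, with Lv-Ctrl replicate 3 the nearest to the Lv-Piezo1 samples. The log2 fold change was -0.24 (SE 0.05, 95% interval -0.35 to -0.14, adjusted p = 0.0015 from limma), a mean level of 84.4% of that in Lv-Ctrl. Lamp1, the related lysosomal glycoprotein, was chosen for comparison after its values were seen, and measured 659 ± 18.2 TPM in Lv-Ctrl and 645 ± 5.58 TPM in Lv-Piezo1 (SD, n = 4 each), with a log2 fold change of -0.03 (adjusted p = 0.34 from limma). Median-ratio scaling made Lamp1 lower (-0.20, adjusted p = 0.0020 from limma), beside -0.41 for Lamp2. With quantile normalization Lamp1 was at 0.01 (adjusted p = 0.72 from limma), beside -0.24 for Lamp2. The log2 ratio of Lamp2 to Lamp1 within a sample, which no common factor on a sample can change, went from -1.15 ± 0.10 to -1.36 ± 0.05 (SD, n = 4 each). This ratio was lower in all 4 samples labelled Lv-Piezo1. Its permutation test (p = 0.029) carries no weight, since the pair was chosen after its values were seen.

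Map1lc3b encodes LC3B, whose lipid-bound form is the usual protein marker of autophagosomes. It measured 132, 125, 111 and 113 TPM in Lv-Ctrl replicates 1 to 4 and 102, 106, 108 and 93.3 TPM in Lv-Piezo1 replicates 1 to 4. The groups lay close without overlapping, with the lowest Lv-Ctrl sample at 111 TPM and the highest Lv-Piezo1 sample at 108 TPM. The log2 fold change was -0.23 (SE 0.07, 95% interval -0.38 to -0.08, adjusted p = 0.016 from limma). Map1lc3a, which encodes the paralogue LC3A, had the widest spread of the 10 genes. It measured 190, 177, 216 and 204 TPM in Lv-Ctrl and 215, 210, 182 and 164 TPM in Lv-Piezo1. The groups overlapped over most of their range, and the log2 fold change was -0.03 (95% interval -0.24 to 0.18, adjusted p = 0.79 from limma). The within-sample log2 ratio of Map1lc3b to Map1lc3a was -0.71 ± 0.23 in Lv-Ctrl and -0.91 ± 0.15 in Lv-Piezo1 (SD, n = 4 each), and the groups overlapped.

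Gabarapl1, of the GABARAP branch of the ATG8 family, differed by less than its spread. It measured 379, 360, 351 and 342 TPM in Lv-Ctrl and 355, 365, 354 and 352 TPM in Lv-Piezo1. The Lv-Piezo1 samples lay inside the range of the Lv-Ctrl samples, and the log2 fold change was -0.01 (95% interval -0.08 to 0.07, adjusted p = 0.91 from limma), below 0 on the deposited values and after median-ratio scaling (-0.17, adjusted p = 0.0055) but above 0 after quantile normalization (0.05). Its relative Gabarapl2 fell from 265 ± 13.7 to 184 ± 5.88 TPM (SD, n = 4 each), with a log2 fold change of -0.52 (SE 0.04, adjusted p = 7.9e-06 from limma). Gabarap, the third gene of this branch, fell from 214 ± 10.5 to 189 ± 8.43 TPM (log2 fold change -0.18, adjusted p = 0.0080 from limma). The log2 ratio of Gabarapl2 to Gabarapl1 within a sample went from -0.43 ± 0.13 to -0.96 ± 0.05 (SD, n = 4 each), with no overlap. These ratios were chosen after the levels had been seen. Their permutation tests therefore carry no weight (p = 0.029 for Gabarapl2 to Gabarapl1 and p = 0.23 for Map1lc3b to Map1lc3a).

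**Figure D2:**
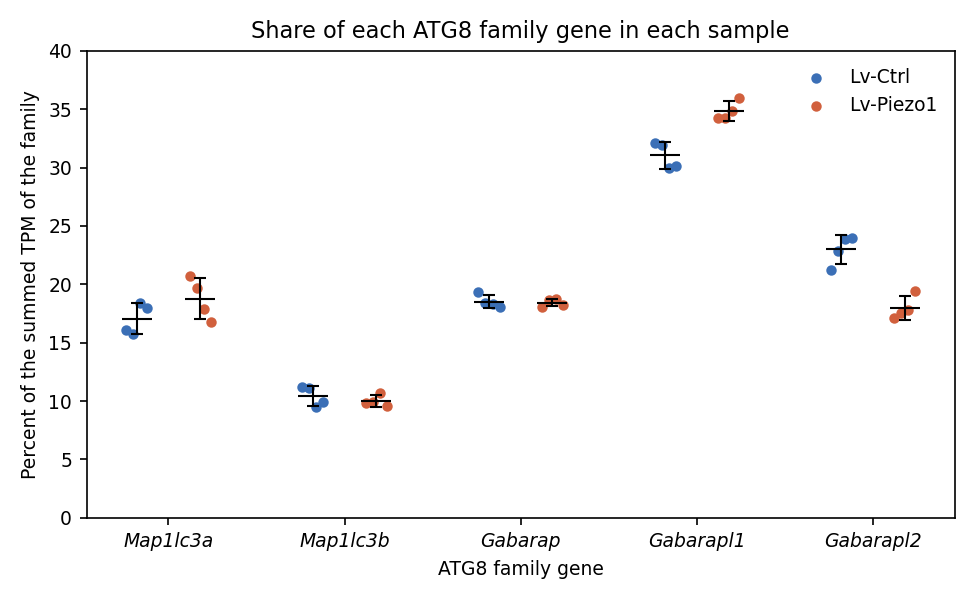
Percent of the summed TPM of the 5 ATG8 family genes that each gene holds, with 1 point for each of the 4 samples of a group, and the mean ± SD in black. Gabarapl1 held the largest share in every sample, all Lv-Piezo1 points of Gabarapl1 lay above its Lv-Ctrl points, and all those of Gabarapl2 lay below.

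The 5 ATG8 family genes together held 1126 to 1179 TPM in Lv-Ctrl and 978 to 1068 TPM in Lv-Piezo1. Gabarapl1 made up 31.0% ± 1.16 of that sum in Lv-Ctrl and 34.8% ± 0.83 in Lv-Piezo1 (SD, n = 4 each). Its own level was 358 and 356 TPM (means) as deposited, so this larger share went with a smaller sum (1153 and 1024 TPM, means). Gabarapl2 made up 23.0% ± 1.27 and 17.98% ± 1.01, and these are the 2 genes in the plot of ATG8 shares whose groups lay apart. The shares of Gabarap, Map1lc3a and Map1lc3b overlapped between the groups. How reads that match several related copies were counted is not given in the sources used here, so levels of these paralogues carry that uncertainty.

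The genes that start autophagy and build the membrane had small differences. Becn1, the core of the lipid kinase complex, measured 71.9, 71.6, 67.6 and 68.2 TPM in Lv-Ctrl and 69.7, 70.3, 71.2 and 70.2 TPM in Lv-Piezo1. Its log2 fold change was 0.01 (95% interval -0.06 to 0.09, adjusted p = 0.78 from limma) on the deposited values, and it was below 0 after median-ratio scaling (-0.15, adjusted p = 0.0024) and quantile normalization (-0.08, adjusted p = 0.045). The Lv-Piezo1 samples of Becn1 lay inside the Lv-Ctrl range. Atg5, which acts in the conjugation of ATG8 proteins, measured 40.1, 37.3, 39.5 and 39.8 TPM in Lv-Ctrl and 37.8, 35.7, 38.0 and 35.0 TPM in Lv-Piezo1. The ranges met between 37.3 and 38.0 TPM, and the log2 fold change of -0.10 did not pass on the deposited values (adjusted p = 0.082 from limma), while it passed after median-ratio scaling (-0.25, adjusted p = 0.0030), after quantile normalization (-0.21, adjusted p = 0.0042), without mitochondrially encoded genes (-0.11, adjusted p = 0.043) and without Lv-Ctrl replicate 2 (-0.12, adjusted p = 0.049).

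Atg7, the activating enzyme of both conjugation systems, was the least abundant of the 10 genes. It measured 7.46, 7.36, 7.73 and 7.95 TPM in Lv-Ctrl and 8.55, 8.39, 10.0 and 8.71 TPM in Lv-Piezo1. All samples labelled Lv-Piezo1 were higher, and the log2 fold change was 0.20 (SE 0.06, adjusted p = 0.025 from limma). The call was lost after median-ratio scaling (0.05, adjusted p = 0.52) and quantile normalization (0.01, adjusted p = 0.90), and also when Lv-Ctrl replicate 1 (0.19, adjusted p = 0.058), Lv-Ctrl replicate 2 (0.18, adjusted p = 0.060) or Lv-Piezo1 replicate 3 (0.15, adjusted p = 0.062) was left out.

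Ulk1, the kinase that starts autophagosome formation, was also higher in every Lv-Piezo1 sample. It measured 16.4, 17.2, 15.6 and 15.6 TPM in Lv-Ctrl and 18.1, 18.02, 17.6 and 20.55 TPM in Lv-Piezo1, where replicate 4 stood above the rest. The log2 fold change was 0.18 (SE 0.06, adjusted p = 0.024 from limma), near the median of 0.14 for all tested genes. It fell to 0.03 after median-ratio scaling (adjusted p = 0.62) and 0.02 after quantile normalization (adjusted p = 0.72), and the call was lost without Lv-Ctrl replicate 4 (0.17, adjusted p = 0.065) and without Lv-Piezo1 replicate 4 (0.14, adjusted p = 0.051). Tfeb, the transcription factor, measured 16.7, 14.6, 15.0 and 14.7 TPM in Lv-Ctrl and 17.0, 14.2, 13.9 and 13.4 TPM in Lv-Piezo1. In each group replicate 1 was the highest sample, the groups overlapped, and the log2 fold change was -0.06 (95% interval -0.23 to 0.12, adjusted p = 0.54 from limma). It passed only after quantile normalization, at -0.24 (adjusted p = 0.038).

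**Figure D3:**
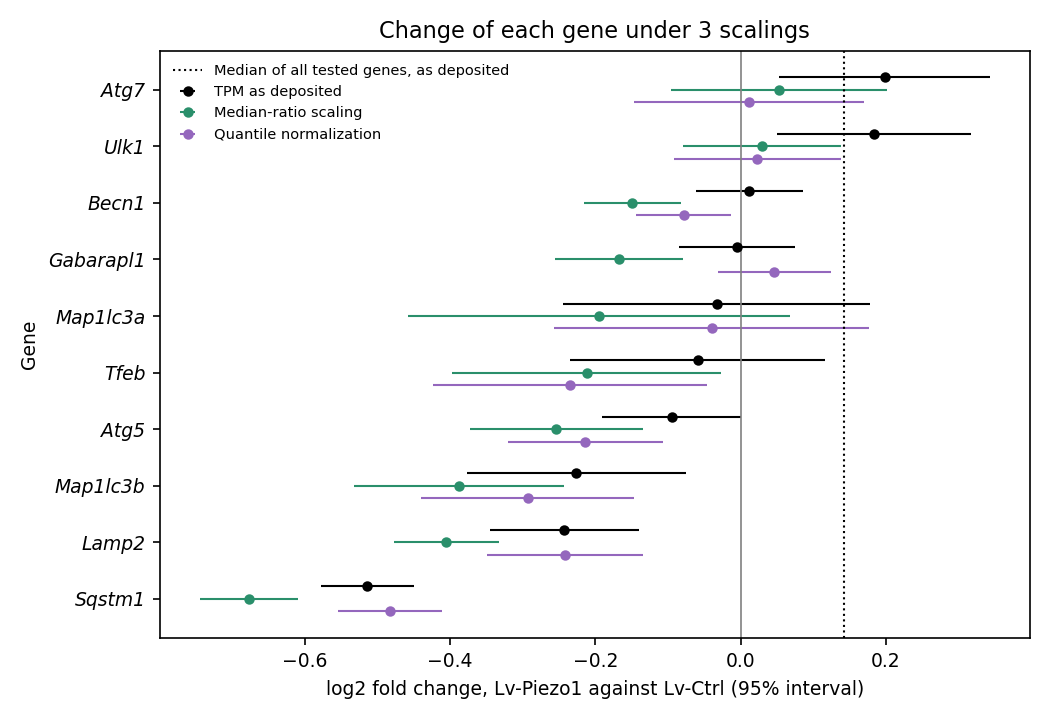
log2 fold change of the 10 genes, Lv-Piezo1 against Lv-Ctrl, with 95% intervals from limma, for TPM as deposited (black), after median-ratio scaling (green) and after quantile normalization (purple). The intervals of Sqstm1, Lamp2 and Map1lc3b lay below 0 under all 3 scalings, while those of Atg7 and Ulk1 lay above 0 as deposited only.

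The counts depended on how the samples were scaled. Median-ratio scaling moved the median of all tested genes from 0.14 to -0.0046, and the log2 fold change of each of the 10 genes by a similar amount. After it, 6 of the 10 genes had an adjusted p below 0.05 and were lower, namely Sqstm1, Lamp2, Map1lc3b, Atg5, Gabarapl1 and Becn1, and 0 were higher, where 27.9% of all tested genes were lower and 27.9% were higher (55.8% in both directions). After quantile normalization there were also 6 lower genes and 0 higher, with Tfeb in place of Gabarapl1, where 27.3% of all tested genes were lower and 28.7% were higher. Sqstm1, Lamp2 and Map1lc3b were lower under all 3 scalings, as the plot of changes under the 3 scalings shows. Mitochondrially encoded genes, which share the TPM total, held 7.03% to 7.90% of it in Lv-Ctrl and 6.05% to 6.53% in Lv-Piezo1, and without them these 3 genes were still lower.

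The wider machinery was followed in hand-written lists by role. Of 165 further genes of autophagy, lysosomes and their nutrient sensors, 156 were in the table and 154 were tested. On the deposited values 58 of them rose and 41 fell at an adjusted p below 0.05, beside 41.9% and 16.3% of all tested genes, and after median-ratio scaling 34 were higher and 75 lower, beside 27.9% for each direction. Quantile normalization gave a smaller tilt, with 46 higher and 62 lower, beside 28.7% and 27.3%. The same shares of all tested genes stand beside each list that follows. The median log2 fold change of the 154 genes was 0.03 as deposited and -0.13 after that scaling. Of these, 4 passed the 2-fold threshold, beside 7.67% of all tested genes. The hydrolase gene Ctsz and the GTPase gene Rragd were higher. The hydrolase gene Ctsk and Gm2a, an activator gene in the hydrolase list, were lower.

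**Figure D4:**
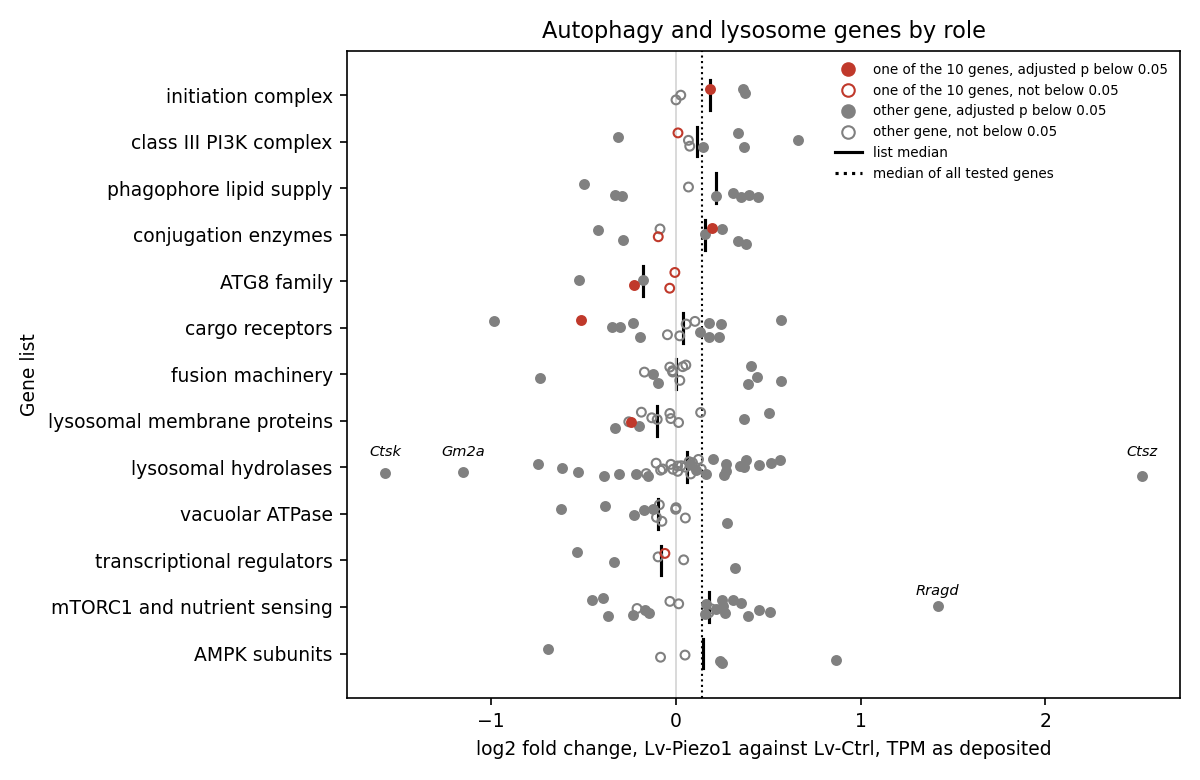
log2 fold change (TPM as deposited) of each tested gene in the lists by role, with 1 point per gene. Red points are the 10 genes, filled points have an adjusted p below 0.05, and short black lines are list medians. Most genes lay well within 1 of 0, and Ctsz, Rragd, Ctsk and Gm2a lay beyond 1 in size.

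In the initiation complex, which holds Ulk1 and its partners, 3 of 5 tested genes rose, Ulk1 among them, and 0 fell. After median-ratio scaling 1 was higher and 1 lower, and Ulk1 and Atg101 were not called. Quantile normalization gave 2 higher, Atg101 among them, and 1 lower. Rb1cc1 (FIP200), the scaffold of the complex, rose from 13.7 ± 1.87 to 17.96 ± 1.19 TPM and Atg101 from 63.4 ± 6.15 to 81.7 ± 2.19 TPM (SD, n = 4 each), with adjusted p of 0.0081 and 9.4e-04 from limma. In the class III PI3K complex, which holds Becn1, 4 of 8 rose and 1 fell, and 3 were higher and 2 lower after either median-ratio scaling or quantile normalization. Nrbf2, a partner of the BECN1-ATG14 form of the complex, rose from 24.4 ± 1.49 to 39.0 ± 2.29 TPM (log2 fold change 0.66, adjusted p = 1.2e-05 from limma), and Ambra1 had a log2 fold change of 0.37. Uvrag, the partner of BECN1 in endosome traffic, fell from 36.6 ± 1.503 to 29.2 ± 0.55 TPM (log2 fold change -0.31, adjusted p = 1.4e-04 from limma). The direction of Rb1cc1, Atg101, Nrbf2, Ambra1 and Uvrag held after median-ratio scaling, but Atg101 was no longer called (0.20, adjusted p = 0.067 from limma). Atg101 was called after quantile normalization (0.28, adjusted p = 0.0081 from limma).

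Among genes that supply lipid to the growing membrane, 5 of 9 rose and 3 fell, and 4 were higher and 3 lower after either median-ratio scaling or quantile normalization. Vmp1, a lipid scramblase of the endoplasmic reticulum, rose from 168 ± 2.68 to 229 ± 4.60 TPM (log2 fold change 0.44, adjusted p = 1.4e-06 from limma), and Wipi1 from 89.0 ± 1.79 to 118 ± 3.31 TPM (0.40). Wdr45 (WIPI4) fell from 45.5 ± 2.34 to 31.98 ± 1.96 TPM (-0.50) and its partner in lipid transfer, Atg2a, from 19.2 ± 1.09 to 15.1 ± 0.75 TPM (-0.33). Among the conjugation enzymes, which include Atg5 and Atg7, 5 of 9 tested genes rose and 2 fell, while after median-ratio scaling 2 were higher and 4 lower, with Atg7 no longer called and Atg5 lower. Quantile normalization gave 3 higher and 4 lower. Atg3, which transfers ATG8 proteins to lipid, rose from 66.8 ± 1.82 to 87.3 ± 2.85 TPM (0.38, adjusted p = 2.1e-05 from limma), and Atg16l1, the partner of the ATG12-ATG5 conjugate, from 17.7 ± 0.33 to 22.6 ± 1.35 TPM (0.34). Among the 5 ATG8 genes that these enzymes act on, 0 rose and 3 fell, Gabarapl2, Map1lc3b and Gabarap, with Gabarapl1 also lower after median-ratio scaling.

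Of the 16 tested cargo receptors, 6 rose and 6 fell, and after median-ratio scaling 1 was higher and 7 lower. With quantile normalization 4 were higher and 7 lower. Ncoa4, the receptor for ferritin, fell more than Sqstm1. It measured 107, 111, 86.5 and 107 TPM in Lv-Ctrl and 47.98, 49.0, 52.2 and 56.8 TPM in Lv-Piezo1. Its groups lay far apart, and its log2 fold change was -0.99 (SE 0.08, adjusted p = 1.2e-05 from limma), which passed -1 after median-ratio scaling (-1.15). A second row of the table with the symbol Ncoa4 is listed at 0 in every sample and was not used. Tollip, a receptor for ubiquitinated cargo, rose from 18.8 ± 1.61 to 28.3 ± 1.92 TPM (0.57), and Bnip3l (NIX), a mitophagy receptor, from 80.2 ± 2.52 to 94.3 ± 1.20 TPM (0.23 as deposited and 0.07 after median-ratio scaling). In limma Tollip and Bnip3l had adjusted p-values of 2.5e-04 or less as deposited, but Bnip3l was no longer called after median-ratio scaling (adjusted p = 0.099). It was called after quantile normalization (0.16, adjusted p = 0.0015 from limma). Bnip3, also in this list, fell from 248 ± 8.77 to 217 ± 11.3 TPM (-0.19, adjusted p = 0.0043 from limma). It was also lower after median-ratio scaling (-0.35) and quantile normalization (-0.20), and was added after its values were seen.

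In the machinery of fusion with the lysosome, 4 of 14 genes rose and 3 fell, and after median-ratio scaling 3 were higher and 8 lower. With quantile normalization 3 were higher and 7 lower. Vamp8, the SNARE protein of the lysosomal side, measured 79.8, 86.9, 99.0 and 93.7 TPM in Lv-Ctrl and 55.6, 55.5, 54.0 and 48.5 TPM in Lv-Piezo1. Its groups lay far apart, and its log2 fold change of -0.74 (SE 0.07, adjusted p = 2.5e-05 from limma) was larger than that of Sqstm1. Ykt6, another SNARE, had a change of -0.12, while the tethering genes Tecpr1 (0.57) and Plekhm1 (0.44) rose. Of 13 lysosomal membrane genes, Lamp2 among them, 2 rose and 3 fell, and after median-ratio scaling 2 were higher and 9 lower. Quantile normalization gave 1 higher and 7 lower. Cd63, the most abundant, fell from 2595 ± 185 to 2061 ± 37.4 TPM (log2 fold change -0.33, adjusted p = 3.5e-04 from limma), and the chloride-proton exchanger Clcn7 (0.50) and the amino acid sensor Slc38a9 (0.37) rose. Cd68, a lysosomal glycoprotein counted above as a macrophage marker, had 0.2 to 2.08 TPM in Lv-Ctrl and 11.4 to 13.4 TPM in Lv-Piezo1.

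The list of lysosomal hydrolases, which also holds the activator gene Gm2a, held the widest changes. Of 38 tested genes 14 rose and 9 fell at an adjusted p below 0.05, with a median log2 fold change of 0.06 as deposited, and after median-ratio scaling 10 were higher and 19 lower, with a median of -0.10. With quantile normalization 13 were higher and 13 lower. Ctsz, which encodes cathepsin Z, measured 7.45, 6.17, 7.32 and 7.01 TPM in Lv-Ctrl and 44.0, 47.8, 44.5 and 42.9 TPM in Lv-Piezo1 (log2 fold change 2.52, SE 0.06, adjusted p = 4.9e-09 from limma). Ctsk, which encodes the collagen-degrading cathepsin K, went the opposite way, with 217, 215, 222 and 226 TPM in Lv-Ctrl and 69.2, 75.1, 74.2 and 74.9 TPM in Lv-Piezo1 (log2 fold change -1.57, SE 0.04, adjusted p = 2.7e-09 from limma). For both cathepsin genes the groups lay far apart.

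**Figure D5:**
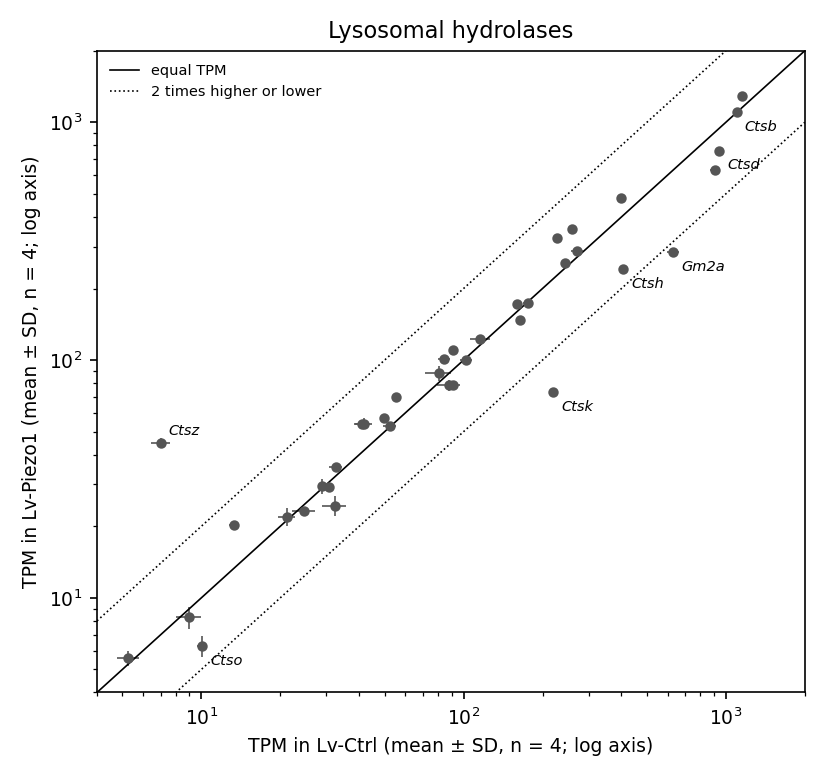
Mean TPM of 38 tested genes of the lysosomal hydrolase list in Lv-Ctrl (x, log axis) and Lv-Piezo1 (y, log axis), with SD bars (n = 4 each), a line of equal TPM and dotted lines at 2 times higher or lower. Ctsz lay above the upper dotted line and Ctsk and Gm2a below the lower one, while most genes lay near the line of equal TPM.

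Gm2a, the activator protein of ganglioside breakdown, fell from 630 ± 32.9 to 283 ± 6.48 TPM (log2 fold change -1.15, adjusted p = 3.8e-08 from limma). Galns, a sulfatase that acts on keratan sulfate, rose from 13.3 ± 0.51 to 20.1 ± 0.44 TPM (0.57, adjusted p = 5.2e-06 from limma). Of 2 abundant proteases in the plot of hydrolase levels, Ctsb, cathepsin B, measured 1098 ± 33.7 and 1106 ± 3.67 TPM (log2 fold change 0.01 as deposited), while Ctsd, cathepsin D, went from 942 ± 25.7 to 760 ± 12.9 TPM (-0.31, adjusted p = 1.9e-05 from limma). Ctsb was lower after median-ratio scaling (-0.15, adjusted p = 0.0071 from limma) but not after quantile normalization (0.05, adjusted p = 0.22 from limma). Ctsb and Ctsd were also chosen after their values were seen.

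Of 12 tested genes of the vacuolar ATPase, which acidifies the lysosome, 1 rose and 5 fell, and after median-ratio scaling 0 were higher and 11 lower. Quantile normalization gave 1 higher and 8 lower. Atp6v1d went from 208 ± 5.31 to 135 ± 3.38 TPM (log2 fold change -0.62, adjusted p = 3.9e-07 from limma) and Atp6v1h from 66.4 ± 3.50 to 50.6 ± 2.69 TPM (-0.38). Atp6v0c, a subunit of the membrane ring, rose from 650 ± 23.1 to 789 ± 17.7 TPM (0.28 as deposited). Its change was 0.12 after median-ratio scaling (adjusted p = 0.088 from limma) and 0.32 after quantile normalization (adjusted p = 9.2e-06 from limma). Among 6 transcriptional regulators, 1 rose and 2 fell, and after median-ratio scaling 1 was higher and 3 lower. With quantile normalization 1 was higher and 4 lower. Tfe3, a relative of Tfeb, rose from 18.9 ± 1.39 to 23.8 ± 0.73 TPM (0.32, adjusted p = 9.8e-04 from limma), and another relative, Mitf, fell from 10.3 ± 0.83 to 7.99 ± 0.58 TPM (-0.34, adjusted p = 0.0033 from limma), beside Tfeb at -0.06, which did not pass.

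Of 23 tested genes of mTORC1, the kinase complex that holds autophagy back when nutrients are present, and of its sensors, 12 rose and 6 fell, and after median-ratio scaling 6 were higher and 9 lower. With quantile normalization 9 were higher and 8 lower. Tsc1, part of the brake on mTORC1, rose from 5.02 ± 0.59 to 7.56 ± 0.52 TPM (log2 fold change 0.51) and Rptor, the scaffold of the complex, from 8.06 ± 0.50 to 11.4 ± 0.65 TPM (0.45). Sesn1 fell from 7.33 ± 0.47 to 5.08 ± 0.35 TPM (-0.46) and Lamtor4, of the lysosomal anchor of mTORC1, from 159 ± 9.37 to 121 ± 10.7 TPM (-0.39). Rragd, a Rag GTPase that recruits mTORC1 to the lysosome, was named after its values were seen, since it lies below the mean of 5 TPM asked of named genes. It measured 2.4, 1.63, 2.12 and 1.66 TPM in Lv-Ctrl and 7.11, 6.55, 6.38 and 7.33 TPM in Lv-Piezo1 (log2 fold change 1.42, SE 0.10, adjusted p = 3.6e-06 from limma). Of 6 tested genes of AMPK, the energy sensor that activates ULK1, and its kinase, 3 rose and 1 fell, and after median-ratio scaling 1 was higher and 1 lower. The regulatory subunit Prkab1 fell from 167 ± 17.4 to 103 ± 11.5 TPM (-0.69, adjusted p = 1.9e-04 from limma), and the upstream kinase Stk11 (LKB1) rose from 56.5 ± 1.04 to 66.9 ± 1.56 TPM (0.24 as deposited). After median-ratio scaling Stk11 was at 0.08 and was no longer called (adjusted p = 0.14 from limma). It was called after quantile normalization (0.15, adjusted p = 0.0037 from limma).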

How the data were processed

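RNA-seq covered 4 Lv-Ctrl and 4 Lv-Piezo1 samples. The authors removed adapter, poly-N and low-quality reads, mapped the rest with HISAT2, reconstructed transcripts with StringTie, and deposited TPM with 2 decimals and the mean of each group. The methods name FPKM, and the submitters' processing notes name DESeq2 and mm10, a mouse build, although the table carries 30560 rat Ensembl identifiers and 1139 assembled loci. No count model was fitted.

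Here log2(TPM + 1) of 13103 genes (mean TPM 1 or more) was compared with limma 3.58.1 in R 4.3.3 (empirical Bayes with a trend, Benjamini-Hochberg adjustment), without a block. "Rose" and "fell" mean an adjusted p below 0.05. The 10 genes and the role lists were chosen with earlier results of these data known. Where a symbol had 2 rows, that with the higher mean over all samples was used. Of the 175 list genes, 166 were matched by symbol, and 1 further gene is not reported here.

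Named genes were the 10 genes and, in each list, up to 2 rises and 2 falls with the largest change, a mean of at least 5 TPM, no overlap between groups and the same direction after median-ratio scaling. Samples of a group were separate biological repeats per the study's methods. Alternatives were a pseudocount of 0.1, other filters, quantile normalization, median-ratio scaling, removal of mitochondrially encoded genes, no trend, a replicate block, and leaving out each sample. Protein sequences were not used here. Leaving samples out of the paralogue ratios was added after the data were seen.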

Additional observations from a re-analysis of the deposited data

Results flagged for a closer look

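In Lv-Piezo1 replicate 4, Ulk1 had 20.55 TPM and stood apart from the other samples of its group, which had 17.6 to 18.1 TPM. The gap to the nearest sample was 0.834 of the group's range, above Dixon's critical value for 4 samples. Of 22 groups examined (the 10 genes and Piezo1 in each group) this was the only one, and chance gives about 1 in 20. Without this sample the log2 fold change of Ulk1 was 0.14 (adjusted p = 0.051 from limma).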

How the results depend on the processing

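The count of 0 among the 10 genes past the 2-fold threshold held under all 16 alternatives, and the falls of Sqstm1, Lamp2 and Map1lc3b and the rise of Piezo1 kept their direction and their side of the threshold under all of them. The number of the 10 genes with an adjusted p below 0.05 was 4 or 5 when a sample was left out and 4 with the replicate block. It was 6 after median-ratio scaling, after quantile normalization or without mitochondrially encoded genes. Leaving out a sample gave 87 to 104 of the 154 other genes of the lists, and 4 or 5 past the threshold. Of all 13075 to 13139 tested genes, 38.3% to 41% were then higher and 14.7% to 18% lower. Past the threshold, 626 to 681 of them were higher and 346 to 386 lower. The shares of all tested genes were 38.3% higher and 14.9% lower with the replicate block. Without mitochondrially encoded genes they were 39.6% and 17.3%. Departures from the group means hardly correlated between same-numbered samples (-0.0124 to -0.0576). With so few samples this cannot show whether the replicate numbers pair them. With the replicate block Ulk1 missed the threshold (0.18, adjusted p = 0.060 from limma) and no other of the 10 genes changed its call. Genes near 0 changed sign. Becn1 was -0.15 after median-ratio scaling, -0.079 after quantile normalization, -0.0083 without mitochondrially encoded genes, and -0.0036 to 0.025 with a sample left out. Map1lc3a ranged from -0.087 to 0.041 with a sample left out, and Gabarapl1 from -0.026 to 0.022, with 0.046 after quantile normalization. Single reversals were those of Becn1 without Lv-Ctrl replicate 3, of Map1lc3a without Lv-Ctrl replicate 3 (0.01) or Lv-Piezo1 replicate 4 (0.041), and of Gabarapl1 without Lv-Ctrl replicate 1 (0.022) or Lv-Piezo1 replicate 4 (9.0e-04). The cause was not tested. Depth is unknown, so the precision of low genes such as Atg7 rests on the sample spread alone.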
